A study of Rattus norvegicus with 24 samples.

Results

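The comparison described here set rats that had heard loud noise on 7 days against rats that had heard it once, in RNA from the rostral posterior hypothalamic (rPH) region. Members were chosen by treatment label among the rats retained by the study, identified by matching the mean levels it listed: RS7 rats 2, 3, 4, 5 and 6 and AS rats 13, 14, 15, 16 and 17, which make 10 of the 24 rats in the series. One further rat of each group, RS7 rat 1 and AS rat 18, was left out by the study. The study gave low library quality as the reason, through few reads or through excess adapter sequence with high GC content. All animals were adult male Sprague-Dawley rats from Envigo. On each of 7 days every rat was handled and spent time in a chamber that dampened sound, whether or not noise was given. The AS (acute stress) group was given a single exposure to 30 min of white noise at 100 dBA, on day 7, and the RS7 (repeated stress) group was given 7 such exposures on successive days, the last also on day 7. Blood was taken from a tail nick on day 7 in both groups, and brains were collected 24 h after the last exposure. Both groups had therefore heard noise at the same time before collection and differed in how often they had heard it before. Each library came from a tissue block of 1 rat, cut by landmarks in the slice, so the block holds neighbouring tissue and every cell type in it.

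The posterior hypothalamus takes part in arousal, autonomic control and the hormonal response to stressors, and it receives and sends both excitatory glutamatergic and inhibitory GABAergic connections. Responses of the hypothalamic-pituitary-adrenal axis usually become smaller when the same stressor is repeated, which is called habituation. Ion channels, transmitter receptors and calcium-dependent kinases set how strongly neurons answer to their inputs, and their transcripts can change over days.

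The total number of counted reads was 13501169, 11770299, 10647588, 12292073 and 11858909 in AS rats 13 to 17, and 14189794, 12479489, 16538531, 16208973 and 12806794 in RS7 rats 2 to 6. The RS7 libraries were deeper, with a median of 14189794 against 11858909 reads, and the part of this difference in the results was not tested. Levels are given as CPM, the share of a rat's counts scaled with TMM factors, in the order of the rat numbers. RS7 rat 4 stood apart, since its 10 most abundant genes took 18.8% of its counts, against 12.4% to 14.7% in the other 9 rats. Within the RS7 group, gene counts differed between pairs of rats by 4.33 to 5.43 times the sampling noise where rat 4 was in the pair, and by 1.70 to 2.45 times elsewhere. No libraries were identical. Transcripts of the hypothalamic markers Hap1 and Ndn were counted in every rat of both groups, and so were thalamic markers, given below with their values.

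Of 16202 genes tested, 270 (1.67%) were called at an edgeR adjusted p of 0.05 or less. After 7 exposures 192 genes were higher (1.19% of those tested) and 78 were lower (0.481%), so that 71.1% of the calls were increases. At an unadjusted p under 0.05 there were 2628 genes (16.2%), 1351 higher and 1277 lower. The values of the 5 AS and 5 RS7 rats did not overlap in 661 genes (4.08%) of those tested, 387 higher and 274 lower, and in 211 of the 270 called genes. Genes named below for the largest changes or the lowest adjusted p were taken from those 211. Their lack of overlap therefore follows from the choice and is not a separate result. Called changes were mostly small. The median log2 fold change was 0.38 among the increases and -0.44 among the decreases, against -0.01 over all genes tested, and 11 increases and 6 decreases reached 2-fold. The increases lay among more abundant transcripts, with a median of 51.5 CPM against 19.4 CPM for the decreases and 18.4 CPM for all genes tested. When the tested genes were ranked by level and divided into 5 bins of equal size, the number called went from 20 in the lowest bin through 36, 54 and 72 to 88 in the highest, while the median standard error went from 0.235 to 0.0567. In the lowest bin 10 calls were increases and 10 decreases, and in the highest 76 were increases and 12 decreases.

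**Figure D1:**
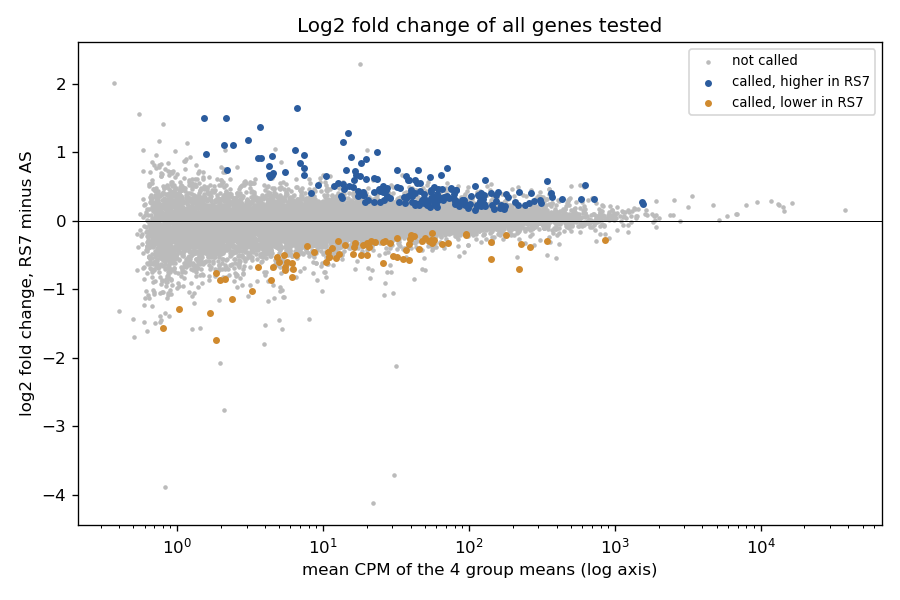
Log2 fold change (RS7 minus AS, vertical axis) of the 16202 genes tested against the mean CPM of the 4 groups (horizontal log axis), with 192 called increases in blue, 78 called decreases in orange and all other genes in grey. Small changes are called only toward the right, and several of the largest decreases, on the left and in the middle, are not called.

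The number of calls depended on single rats. Leaving out AS rats 14, 16 or 17 gave 52, 92 or 46 calls, and leaving out RS7 rats 3, 5 or 6 gave 81, 97 or 83. The count was 317 or 403 when AS rats 13 or 15 were left out, and 403 or 267 when RS7 rats 2 or 4 were. Of the 267 calls made with rat 4 left out, 197 were among the 270. In all, 40 genes, 35 higher and 5 lower, were called in each of the 10 fits that left out 1 rat, and 32 of them, 28 higher and 4 lower, were also called under the 6 other alternatives. The 24-rat fit, which takes in the libraries the study left out for low quality, gave 129 calls, 106 of them among the 270. With AS rat 17 left out there were 41 increases and 5 decreases, and with RS7 rat 4 left out 160 increases and 107 decreases.

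Markers of neighbouring tissue could be read only for genes the study had listed as different in any of its comparisons between groups, including AS against RS7. The signs, sums and lack of overlap given here are therefore largely fixed by that selection and describe only the identified genes. A gene said to have no identifier is a gene whose symbol could not be linked to the counts through those lists. Such a gene may still have been counted and tested. The thalamus list, of which 8 of 13 genes had an identifier (9 identifiers, Tcf7l2 having 2), summed to 1588, 1299, 1556, 1168 and 1145 CPM in the AS rats and 1677, 1792, 1651, 2060.0 and 1721 CPM in the RS7 rats. Its sum was higher in every RS7 rat than in any AS rat, with Slc17a6 its most abundant gene, and its median log2 fold change was 0.46. All 9 were higher in RS7 by sign and 3 were called (Rora, Rorb and Foxp2). The share called was 33.3%, near the 33.9% of all tested genes with a symbol, of which 67.1% were higher by sign. Rora (ENSRNOG00000027145), a nuclear receptor, had 12.5, 8.07, 10.5, 6.37 and 7.86 CPM in the AS rats and 16.2, 22.5, 20.4, 20.0 and 20.9 CPM in the RS7 rats. Rora rose by 1.14 on the log2 scale (standard error 0.21, edgeR adjusted p = 0.0117), and every RS7 rat lay above every AS rat, with the lowest value in AS rat 16 and the highest in RS7 rat 3. Gbx2, Prkcd, Calb2, Prox1 and Cacng3 had no identifier. The list of GABAergic hypothalamic and prethalamic transcription factors, with 5 of 13 genes identified, summed to 30.5, 42, 34.4, 23.9 and 35.7 CPM in the AS rats and 23.5, 12.3, 23.4, 18.1 and 12.7 CPM in the RS7 rats, so that the groups did not overlap. None of these 5 genes was called by edgeR in the 20 rats. The neurosecretory list, with 9 of 13 genes and Hap1 the most abundant, summed to 1056, 1253, 908, 966 and 1103 CPM in the AS rats and 801, 658, 786, 546 and 599.5 CPM in the RS7 rats, again without overlap, and Ndn, Magel2 and Baiap3 fell. The list of ependymal and cilia genes, with 9 of 13 genes and Crocc the most abundant, summed to 55.2, 83, 71.2, 81.3 and 73.1 CPM in the AS rats and 56.5, 50.03, 60.8, 37.2 and 44.5 CPM in the RS7 rats, with overlapping groups, and Crocc, Cdhr1 and Daw1 fell. Of 8 astrocyte markers 4 were identified, with Aqp4 the most abundant, and they summed to 2573, 2815, 2845, 2797 and 2954 CPM in the AS rats and 2753, 2708, 2793, 2445 and 2585 CPM in the RS7 rats, with overlapping groups. Slc1a2 rose and Itih3 fell among them. Of 10 vessel and meningeal markers 5 were identified, with Col4a1 the most abundant, and they summed to 148, 153, 169, 169 and 162 CPM and 155, 172, 167, 176 and 172 CPM, again with overlap, and Lamb1, Plvap and Lox rose. The vessel markers Col4a1 and Col4a2 were lower by sign and were not called by edgeR in the 20 rats. Col4a2 was called by the DESeq2 Wald test (adjusted p = 0.0453) and limma-voom (adjusted p = 0.0244), and by edgeR without AS rat 13 (adjusted p = 0.0407). None of the 9 oligodendrocyte and 7 microglia markers had an identifier. No identified marker was at 0 in a group. In a tissue block, fewer cells of a type and less RNA per cell cannot be told apart. The part of these markers in the changes described below was not tested. Foxp2 and Slc1a2 were each called in all 10 fits that left out 1 rat. Rora was not called without AS rat 17 (edgeR adjusted p = 0.0513). Rorb was not called without AS rats 16 or 17 or RS7 rat 3 (edgeR adjusted p from 0.0527 to 0.0701). Ndn was not called without AS rats 13, 14, 16 or 17 or RS7 rats 3, 5 or 6 (edgeR adjusted p from 0.0708 to 0.107). Magel2 was not called without AS rats 13, 14, 16 or 17 or RS7 rats 3, 5 or 6 (edgeR adjusted p from 0.0564 to 0.119). Baiap3 was not called without AS rats 14, 16 or 17 or RS7 rats 3, 5 or 6 (edgeR adjusted p from 0.0812 to 0.115). Crocc was not called without AS rats 14, 16 or 17 or RS7 rats 3, 5 or 6 (edgeR adjusted p from 0.086 to 0.106). Cdhr1 was not called without AS rats 13, 14, 16 or 17 or RS7 rats 2, 3, 5 or 6 (edgeR adjusted p from 0.0564 to 0.122). Daw1 was not called without AS rats 14, 16 or 17 or RS7 rats 3, 5 or 6 (edgeR adjusted p from 0.0586 to 0.0982). Itih3 was not called without AS rats 14, 16 or 17 or RS7 rats 5 or 6 (edgeR adjusted p from 0.0573 to 0.1). Lamb1 was not called without AS rats 13, 14, 16 or 17 or RS7 rats 3, 5 or 6 (edgeR adjusted p from 0.0691 to 0.165). Plvap was not called without AS rats 14, 16 or 17 or RS7 rats 3, 4 or 6 (edgeR adjusted p from 0.0719 to 0.144). Rorb, Ndn, Magel2, Baiap3, Crocc, Cdhr1, Itih3, Lamb1 and Plvap were not called with all 24 rats (edgeR adjusted p from 0.0561 to 0.495). Ndn, Magel2 and Baiap3 were not called without the filter on low counts (edgeR adjusted p from 0.0651 to 0.0745).

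**Figure D2:**
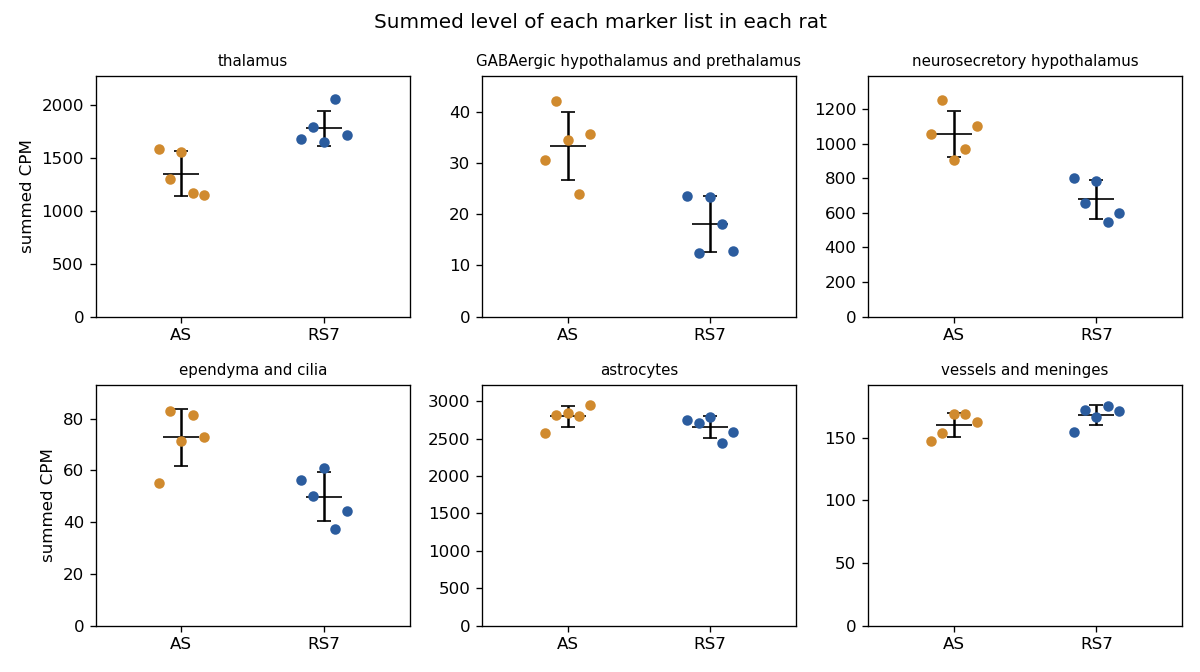
Summed CPM (vertical axes, from 0) of the identified genes of 6 marker lists in each AS rat (orange) and each RS7 rat (blue), with the mean and SD of 5 rats in black. The sums of the thalamus, GABAergic and neurosecretory lists do not overlap between the groups, and those of the astrocyte and vessel lists do.

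Lists of genes by function were read through the identifiers of genes the study had listed as different in any of its comparisons between groups, including AS against RS7. Their counts are therefore not independent evidence of a direction, and a list cannot be read against the genes tested. Not every called member of a list is named below. Over all genes tested the median log2 fold change was -0.01. Of the 765 tested genes with a readable symbol, whatever their function, 33.9% were called, 24.2% higher and 9.67% lower. By sign 67.1% were higher, and the median log2 fold change was 0.20, so a list near these values shows nothing of its own. The lists and their members were chosen with earlier results of these data known. A share called above 33.9% can therefore come from that choice and is not a test of enrichment. Potassium channels gave some of the largest changes in both directions. Of 26 channels 13 had an identifier, of which 4 rose and 1 fell (38.5% called, against 33.9% of all genes with a symbol), with a list median of 0.36. Kcnh5 (ENSRNOG00000009542), a voltage-gated channel of the ether-a-go-go family, had 4.87, 3.26, 3.21, 2.52 and 3.36 CPM in the AS rats and 8.01, 13, 9.18, 12 and 12.1 CPM in the RS7 rats. Kcnh5 rose by 1.64 on the log2 scale (standard error 0.189, edgeR adjusted p = 0.00017), and every RS7 rat lay above every AS rat, with the lowest value in AS rat 16 and the highest in RS7 rat 3. Kcnh7 (ENSRNOG00000007528), a channel of the same family, was at 3.64, 3.83, 3.39, 2.59 and 3.44 CPM in the AS rats and at 5.99, 6.19, 5.64, 6.18 and 8.52 CPM in the RS7 rats. Kcnh7 rose by 0.94 on the log2 scale (standard error 0.149, edgeR adjusted p = 0.00405), and every RS7 rat lay above every AS rat, with the lowest value in AS rat 16 and the highest in RS7 rat 6. Kcnq3 (ENSRNOG00000005206), a subunit of the channels that carry the M-current, had 28.3, 25.4, 25.7, 22.9 and 24 CPM in the AS rats and 38, 48.5, 36, 47.1 and 42.5 CPM in the RS7 rats. Kcnq3 rose by 0.75 on the log2 scale (standard error 0.142, edgeR adjusted p = 0.0129), and every RS7 rat lay above every AS rat, with the lowest value in AS rat 16 and the highest in RS7 rat 3. Kcnj4 (ENSRNOG00000013869), an inwardly rectifying channel, was at 2.26, 4.97, 3.11, 2.12 and 3.27 CPM in the AS rats and at 1.18, 0.322, 0.655, 1.96 and 0.391 CPM in the RS7 rats. Kcnj4 fell by 1.73 on the log2 scale (standard error 0.372, edgeR adjusted p = 0.023), and every RS7 rat lay below every AS rat, with the lowest value in RS7 rat 3 and the highest in AS rat 14. Kcna2, an axonal channel, also rose, by 0.32. Kcnh5 and Kcnh7 were each called in all 10 fits that left out 1 rat. Kcnq3 was not called without AS rat 17 (edgeR adjusted p = 0.0537). Kcnj4 was not called without AS rats 14 or 17 or RS7 rats 3 or 6 (edgeR adjusted p from 0.0633 to 0.0865). Kcna2 was not called without AS rats 14 or 17 or RS7 rats 3, 5 or 6 (edgeR adjusted p from 0.0768 to 0.106). Kcna2 was not called with all 24 rats (edgeR adjusted p = 0.531).

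Among glutamate receptors and their auxiliary subunits, 6 of 26 had an identifier, and 5 of these rose (list median 0.45). The share called was 83.3%, against 33.9% of all genes with a symbol. Grin2a (ENSRNOG00000033942), an NMDA receptor subunit, had 21.8, 15.4, 18.2, 13.3 and 14.8 CPM in the AS rats and 32.2, 35.9, 31.7, 32.2 and 36.2 CPM in the RS7 rats. Grin2a rose by 1.01 on the log2 scale (standard error 0.152, edgeR adjusted p = 0.00405), and every RS7 rat lay above every AS rat, with the lowest value in AS rat 16 and the highest in RS7 rat 6. Frrs1l (ENSRNOG00000043103), a factor in the assembly of AMPA receptors, had 23.5, 23, 25.9, 23 and 20.2 CPM in the AS rats and 29.7, 28.7, 31, 35.9 and 29.3 CPM in the RS7 rats. Frrs1l rose by 0.42 on the log2 scale (standard error 0.082, edgeR adjusted p = 0.011), and every RS7 rat lay above every AS rat, with the lowest value in AS rat 17 and the highest in RS7 rat 5. Grin2b, another NMDA receptor subunit, went from 28.2 ± 3.78 to 39.3 ± 4.07 CPM (log2 fold change 0.48, edgeR adjusted p = 0.031), and Cnih3, an auxiliary subunit of AMPA receptors, went from 3.46 ± 0.701 to 5.51 ± 0.962 CPM (log2 fold change 0.67, edgeR adjusted p = 0.0449), each as mean ± SD of 5 rats. Grm4 was not called (edgeR adjusted p = 0.0907), but was by the DESeq2 Wald test (adjusted p = 0.033) and limma-voom (adjusted p = 0.0315), and by edgeR without AS rat 13 (adjusted p = 0.0463). Grin2a was called in all 10 fits that left out 1 rat. Frrs1l was not called without AS rat 17 (edgeR adjusted p = 0.0537). Grin2b was not called without AS rats 14, 16 or 17 or RS7 rats 3, 4, 5 or 6 (edgeR adjusted p from 0.0511 to 0.115). Cnih3 was not called without AS rats 14, 15, 16 or 17 or RS7 rats 3, 5 or 6 (edgeR adjusted p from 0.0571 to 0.16).

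Of 16 GABA receptor subunits 5 had an identifier, all 5 were higher by sign and 3 rose (list median 0.44). The share called was 60.0%. Of all genes with a symbol 33.9% were called and 67.1% were higher by sign. Gabrb2 (ENSRNOG00000003680), a GABA-A receptor subunit, had 106, 87.3, 109, 91.7 and 81.5 CPM in the AS rats and 125, 140.4, 114, 154 and 147 CPM in the RS7 rats. Gabrb2 rose by 0.51 on the log2 scale (standard error 0.125, edgeR adjusted p = 0.0408), and every RS7 rat lay above every AS rat, with the lowest value in AS rat 17 and the highest in RS7 rat 5. Gabrb1, another subunit, went from 16.3 ± 3.68 to 25 ± 3.84 CPM (log2 fold change 0.61, edgeR adjusted p = 0.0264). Of the 5 genes of GABA synthesis and vesicle loading 3 had an identifier, all 3 were lower by sign and 1 fell (list median -0.55). The share called was 33.3%, near the 33.9% of all genes with a symbol. The genes without an identifier have no direction here. Gad1 (ENSRNOG00000000007), an enzyme that makes GABA from glutamate, was at 245, 327, 266, 217 and 297 CPM in the AS rats and at 192, 146, 166, 166 and 158 CPM in the RS7 rats. Gad1 fell by 0.71 on the log2 scale (standard error 0.132, edgeR adjusted p = 0.0128), and every RS7 rat lay below every AS rat, with the lowest value in RS7 rat 3 and the highest in AS rat 14. Slc32a1 (ENSRNOG00000015393), the vesicular GABA transporter, had 95.7, 115, 84.2, 87.5 and 118 CPM in the AS rats and 84.4, 61, 76.6, 60.9 and 66.6 CPM in the RS7 rats. The groups of Slc32a1 overlapped and it was not called (log2 fold change -0.52, edgeR adjusted p = 0.0541). Gad2 was not called either (log2 fold change -0.55, edgeR adjusted p = 0.0561), although its groups did not overlap. Gabrb2 was not called without AS rats 14, 16 or 17 or RS7 rats 3, 5 or 6 (edgeR adjusted p from 0.0944 to 0.132). Gabrb1 was not called without AS rats 14, 16 or 17 or RS7 rats 3 or 6 (edgeR adjusted p from 0.0635 to 0.0943). Gad1 was not called without AS rat 17 (edgeR adjusted p = 0.0513). Gabrb2 was not called without the filter on low counts (edgeR adjusted p = 0.085). Slc32a1 was called without RS7 rat 2 (edgeR adjusted p = 0.0314) or AS rat 15 (0.0346), and Gad2 without RS7 rat 2 (0.0435). Slc32a1 was also called by the DESeq2 Wald test (adjusted p = 0.00502), edgeR on all 24 rats (adjusted p = 0.0468), limma-voom (adjusted p = 0.0191) and edgeR on the AS and RS7 rats alone (adjusted p = 0.0486). Gad2 was also called by the DESeq2 Wald test (adjusted p = 0.00392), limma-voom (adjusted p = 0.0203) and edgeR on the AS and RS7 rats alone (adjusted p = 0.0272).

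Sodium, calcium and cation channels and their partners had 14 of 27 genes identified, of which 6 rose and 2 fell (list median 0.30; 57.1% called, against 33.9% of all genes with a symbol). Scn8a (ENSRNOG00000005309), a voltage-gated sodium channel, had 172, 152, 193, 169 and 147 CPM in the AS rats and 197, 216, 211, 229 and 211 CPM in the RS7 rats. Scn8a rose by 0.35 on the log2 scale (standard error 0.0716, edgeR adjusted p = 0.0143), and every RS7 rat lay above every AS rat, with the lowest value in AS rat 17 and the highest in RS7 rat 5. Unc80 (ENSRNOG00000028362), a subunit of the sodium leak channel complex, was at 173, 158, 165, 155 and 142 CPM in the AS rats and at 206, 223, 195, 205 and 206 CPM in the RS7 rats. Unc80 rose by 0.38 on the log2 scale (standard error 0.0775, edgeR adjusted p = 0.0146), and every RS7 rat lay above every AS rat, with the lowest value in AS rat 17 and the highest in RS7 rat 3. Hcn3 (ENSRNOG00000020444), a hyperpolarization-activated channel, had 20.2, 18, 17.1, 17.5 and 18.1 CPM in the AS rats and 13.5, 14.2, 13.1, 13.7 and 15.2 CPM in the RS7 rats. Hcn3 fell by 0.39 on the log2 scale (standard error 0.0746, edgeR adjusted p = 0.0102), and every RS7 rat lay below every AS rat, with the lowest value in RS7 rat 4 and the highest in AS rat 13. Trpc7 (ENSRNOG00000012727), a receptor-operated cation channel, was at 5.31, 7.01, 4.53, 4.95 and 6.47 CPM in the AS rats and at 3.83, 2.33, 3.28, 2.84 and 3.2 CPM in the RS7 rats. Trpc7 fell by 0.86 on the log2 scale (standard error 0.193, edgeR adjusted p = 0.0251), and every RS7 rat lay below every AS rat, with the lowest value in RS7 rat 3 and the highest in AS rat 14. Scn1a, Fgf12, Fgf13 and Ano3 also rose, by 0.35, 0.25, 0.23 and 0.37. Hcn3 was called in all 10 fits that left out 1 rat. Scn8a was not called without AS rats 14 or 17 (edgeR adjusted p from 0.0639 to 0.0662). Unc80 was not called without AS rats 14 or 17 or RS7 rat 3 (edgeR adjusted p from 0.0526 to 0.0639). Trpc7 was not called without AS rats 14 or 17 or RS7 rats 3, 5 or 6 (edgeR adjusted p from 0.0565 to 0.0943). Scn1a was not called without AS rats 13, 14, 16 or 17 or RS7 rats 3, 4, 5 or 6 (edgeR adjusted p from 0.0536 to 0.143). Fgf12 was not called without AS rats 14, 16 or 17 or RS7 rats 3, 5 or 6 (edgeR adjusted p from 0.0639 to 0.0964). Fgf13 was not called without AS rats 14, 16 or 17 or RS7 rats 3, 4, 5 or 6 (edgeR adjusted p from 0.0617 to 0.154). Ano3 was not called without AS rats 13, 14 or 17 or RS7 rats 2, 3, 4, 5 or 6 (edgeR adjusted p from 0.0542 to 0.141). Hcn3, Scn8a, Trpc7, Scn1a, Fgf12, Fgf13 and Ano3 were not called with all 24 rats (edgeR adjusted p from 0.0567 to 0.705). Scn1a was not called without the filter on low counts (edgeR adjusted p = 0.0778).

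Calcium and kinase signaling formed the longest list. Of 35 genes 26 had an identifier, 15 rose and none fell, 25 were higher by sign, and the list median was 0.34 (57.7% called, against 33.9% of all genes with a symbol). Camk4 (ENSRNOG00000020478), a calcium/calmodulin-dependent kinase found in neuronal nuclei, had 13.9, 11.7, 16.6, 11.9 and 11.5 CPM in the AS rats and 18.2, 20.8, 21.2, 24.4 and 23.2 CPM in the RS7 rats. Camk4 rose by 0.72 on the log2 scale (standard error 0.118, edgeR adjusted p = 0.00405), and every RS7 rat lay above every AS rat, with the lowest value in AS rat 17 and the highest in RS7 rat 5. Dgkh (ENSRNOG00000010065), a diacylglycerol kinase, was at 1.75, 1.06, 1.32, 0.55 and 1.15 CPM in the AS rats and at 2.37, 3.38, 3.41, 2.59 and 5 CPM in the RS7 rats. Dgkh rose by 1.5 on the log2 scale (standard error 0.252, edgeR adjusted p = 0.00405), and every RS7 rat lay above every AS rat, with the lowest value in AS rat 16 and the highest in RS7 rat 6. Camk1d (ENSRNOG00000017882), another calmodulin-dependent kinase, had 65.1, 59.9, 73, 65.6 and 57.6 CPM in the AS rats and 76.8, 90.5, 88.9, 98.9 and 90.2 CPM in the RS7 rats. Camk1d rose by 0.47 on the log2 scale (standard error 0.0893, edgeR adjusted p = 0.0102), and every RS7 rat lay above every AS rat, with the lowest value in AS rat 17 and the highest in RS7 rat 5. Prkcq (ENSRNOG00000019057), a protein kinase C, was at 40.3, 33.6, 37.8, 33.7 and 33.6 CPM in the AS rats and at 48.2, 49.8, 54.6, 57 and 61.7 CPM in the RS7 rats. Prkcq rose by 0.60 on the log2 scale (standard error 0.116, edgeR adjusted p = 0.0135), and every RS7 rat lay above every AS rat, with the lowest value in AS rat 14 and the highest in RS7 rat 6. Slc8a1 (ENSRNOG00000008479), a sodium/calcium exchanger, had 45, 41.8, 43.5, 38.7 and 39.8 CPM in the AS rats and 49.5, 58.4, 51.7, 62.3 and 59.5 CPM in the RS7 rats. Slc8a1 rose by 0.43 on the log2 scale (standard error 0.0844, edgeR adjusted p = 0.0117), and every RS7 rat lay above every AS rat, with the lowest value in AS rat 16 and the highest in RS7 rat 5. Vsnl1, a calcium sensor that edgeR did not call in the 20 rats, was called by the DESeq2 Wald test (adjusted p = 0.0166) and limma-voom (adjusted p = 0.00992), and by edgeR without AS rat 13 (adjusted p = 0.0153) or RS7 rats 2 or 4 (0.0441 and 0.0476). Its log2 fold change was 0.22 in the 20 rats but -0.02 in all 24 rats. Increases were also called in Ppp3ca, the catalytic subunit of calcineurin (0.26), Plcd4 (0.33), Atp2b2, a calcium pump of the plasma membrane (0.32), Pde4d (0.37), Slc24a2 (0.52), Rgs17 (0.31), Mapk8 (0.28), Prkcb (0.22) and Pdpk1 (0.27). Camk4, Dgkh and Camk1d were each called in all 10 fits that left out 1 rat. Prkcq was not called without AS rats 14 or 17 (edgeR adjusted p from 0.0562 to 0.0563). Slc8a1 was not called without AS rat 17 (edgeR adjusted p = 0.0513). Ppp3ca was not called without AS rat 14 (edgeR adjusted p = 0.0562). Plcd4 was not called without AS rat 14 (edgeR adjusted p = 0.0561). Atp2b2 was not called without AS rats 14, 16 or 17 or RS7 rats 3, 5 or 6 (edgeR adjusted p from 0.073 to 0.106). Pde4d was not called without AS rats 14, 16 or 17 or RS7 rats 5 or 6 (edgeR adjusted p from 0.0527 to 0.0943). Slc24a2 was not called without AS rats 13, 14, 16 or 17 or RS7 rats 3, 5 or 6 (edgeR adjusted p from 0.0541 to 0.114). Rgs17 was not called without AS rats 14, 16 or 17 or RS7 rats 3, 4 or 6 (edgeR adjusted p from 0.0578 to 0.121). Mapk8 was not called without AS rats 14, 16 or 17 or RS7 rats 3, 5 or 6 (edgeR adjusted p from 0.0746 to 0.125). Prkcb was not called without AS rats 14, 16 or 17 or RS7 rats 3, 4, 5 or 6 (edgeR adjusted p from 0.0539 to 0.158). Pdpk1 was not called without AS rats 14, 16 or 17 or RS7 rats 2, 3, 4, 5 or 6 (edgeR adjusted p from 0.0529 to 0.142). Camk1d, Prkcq, Plcd4, Slc24a2, Rgs17, Prkcb and Pdpk1 were not called with all 24 rats (edgeR adjusted p from 0.0667 to 0.451). Slc24a2 was not called without the filter on low counts (edgeR adjusted p = 0.0661).

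Genes of vesicle release and synaptic adhesion had 21 of 32 identified, 12 rose, and all 21 were higher by sign (list median 0.38; 57.1% called, against 33.9% of all genes with a symbol). Rab3c (ENSRNOG00000011623), a small GTPase of synaptic vesicles, had 123, 97.9, 123, 93.7 and 96.5 CPM in the AS rats and 139, 173, 175, 159 and 157 CPM in the RS7 rats. Rab3c rose by 0.59 on the log2 scale (standard error 0.112, edgeR adjusted p = 0.0129), and every RS7 rat lay above every AS rat, with the lowest value in AS rat 16 and the highest in RS7 rat 4. Cbln4 (ENSRNOG00000004372), a secreted synaptic organizer, was at 65.8, 37.4, 57, 64.6 and 51.7 CPM in the AS rats and at 94.3, 82.9, 93.2, 85.3 and 116 CPM in the RS7 rats. Cbln4 rose by 0.77 on the log2 scale (standard error 0.176, edgeR adjusted p = 0.0326), and every RS7 rat lay above every AS rat, with the lowest value in AS rat 14 and the highest in RS7 rat 6. Cntn4 (ENSRNOG00000005652), an adhesion molecule of axons, had 76, 67.2, 81.5, 65.9 and 62.8 CPM in the AS rats and 86.4, 88.8, 93.1, 109 and 87.4 CPM in the RS7 rats. Cntn4 rose by 0.40 on the log2 scale (standard error 0.087, edgeR adjusted p = 0.0253), and every RS7 rat lay above every AS rat, with the lowest value in AS rat 17 and the highest in RS7 rat 5. Pclo (ENSRNOG00000005726), the active zone scaffold piccolo, was at 148, 132, 156, 128 and 123 CPM in the AS rats and at 179.6, 189, 204, 176 and 172 CPM in the RS7 rats. Pclo rose by 0.42 on the log2 scale (standard error 0.0949, edgeR adjusted p = 0.0277), and every RS7 rat lay above every AS rat, with the lowest value in AS rat 17 and the highest in RS7 rat 4. The vesicle fusion gene Snap25 rose by 0.24 in the 20 retained rats, but in all 24 rats its log2 fold change was -0.32 (edgeR adjusted p = 0.87). Stxbp5l (0.44), Slitrk6 (0.45), Cadm2 (0.33), Erc2 (0.30), Adgrl2 (0.26) and Napb (0.22) were also called. Rab3c was not called without AS rats 14 or 17 (edgeR adjusted p from 0.0562 to 0.0563). Cbln4 was not called without AS rats 14, 16 or 17 or RS7 rats 3, 4, 5 or 6 (edgeR adjusted p from 0.0536 to 0.114). Cntn4 was not called without AS rats 14, 16 or 17 or RS7 rats 3 or 5 (edgeR adjusted p from 0.0507 to 0.0964). Pclo was not called without AS rats 14, 16 or 17 or RS7 rats 3, 4, 5 or 6 (edgeR adjusted p from 0.0516 to 0.1). Snap25 was not called without AS rats 14, 16 or 17 or RS7 rats 5 or 6 (edgeR adjusted p from 0.0535 to 0.0978). Stxbp5l was not called without AS rats 14, 16 or 17 or RS7 rats 3 or 6 (edgeR adjusted p from 0.0542 to 0.0794). Slitrk6 was not called without AS rats 14, 16 or 17 or RS7 rats 3, 4, 5 or 6 (edgeR adjusted p from 0.055 to 0.121). Cadm2 was not called without AS rats 14, 16 or 17 or RS7 rats 3, 4, 5 or 6 (edgeR adjusted p from 0.0648 to 0.121). Erc2 was not called without AS rats 14, 16 or 17 or RS7 rats 2, 3, 4, 5 or 6 (edgeR adjusted p from 0.0538 to 0.149). Adgrl2 was not called without AS rats 14 or 17 or RS7 rats 3, 5 or 6 (edgeR adjusted p from 0.0662 to 0.111). Napb was not called without AS rats 14, 16 or 17 or RS7 rats 3, 5 or 6 (edgeR adjusted p from 0.0844 to 0.123). Pclo, Snap25, Cadm2, Erc2, Adgrl2 and Napb were not called with all 24 rats (edgeR adjusted p from 0.0618 to 0.87). Cbln4 and Slitrk6 were not called without the filter on low counts (edgeR adjusted p from 0.0581 to 0.0727).

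Neurofilaments, spectrins and motors had 21 of 22 genes identified, with 4 increases, 1 decrease and a list median of 0.21 (23.8% called, against 33.9% of all genes with a symbol). Myo5a (ENSRNOG00000058866), a motor that carries cargo along actin, had 331, 268, 306, 257 and 258 CPM in the AS rats and 389.9, 439, 434, 432 and 425 CPM in the RS7 rats. Myo5a rose by 0.58 on the log2 scale (standard error 0.0938, edgeR adjusted p = 0.00431), and every RS7 rat lay above every AS rat, with the lowest value in AS rat 16 and the highest in RS7 rat 3. Myo9a (ENSRNOG00000011619), an unconventional myosin, was at 67.7, 52.8, 52.7, 54.3 and 53.6 CPM in the AS rats and at 81.4, 77.1, 77.5, 72.7 and 81.2 CPM in the RS7 rats. Myo9a rose by 0.47 on the log2 scale (standard error 0.0885, edgeR adjusted p = 0.0102), and every RS7 rat lay above every AS rat, with the lowest value in AS rat 15 and the highest in RS7 rat 2. Actn2 (ENSRNOG00000017833), an actin cross-linker, had 5.89, 6.77, 6.41, 7.47 and 7.61 CPM in the AS rats and 4.67, 5.07, 4, 3.6 and 4.06 CPM in the RS7 rats. Actn2 fell by 0.68 on the log2 scale (standard error 0.144, edgeR adjusted p = 0.0176), and every RS7 rat lay below every AS rat, with the lowest value in RS7 rat 5 and the highest in AS rat 17. Sptbn1 (0.27) and the neurofilament gene Nefm (0.40) also rose. Myo5a and Myo9a were each called in all 10 fits that left out 1 rat. Actn2 was not called without AS rats 14, 16 or 17 or RS7 rats 5 or 6 (edgeR adjusted p from 0.0517 to 0.0701). Sptbn1 was not called without AS rats 14, 16 or 17 or RS7 rats 3, 5 or 6 (edgeR adjusted p from 0.0636 to 0.111). Nefm was not called without AS rats 13, 14 or 17 or RS7 rats 3, 4, 5 or 6 (edgeR adjusted p from 0.0536 to 0.121). Sptbn1 and Nefm were not called with all 24 rats (edgeR adjusted p from 0.0618 to 0.95). Nefm was not called without the filter on low counts (edgeR adjusted p = 0.0657).

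Among peptide and neuromodulator receptors 16 of 19 genes had an identifier, 2 rose and 2 fell, and 7 were higher and 9 lower by sign (list median -0.35; 25% called, against 33.9% of all genes with a symbol). Oprm1 (ENSRNOG00000018191), the mu opioid receptor, had 13.7, 9.79, 10.8, 6.37 and 7.45 CPM in the AS rats and 23.1, 26.6, 25, 22.8 and 20.01 CPM in the RS7 rats. Oprm1 rose by 1.28 on the log2 scale (standard error 0.223, edgeR adjusted p = 0.00949), and every RS7 rat lay above every AS rat, with the lowest value in AS rat 16 and the highest in RS7 rat 3. Rxfp2 (ENSRNOG00000000897), a receptor for insulin-like peptide 3, was at 1.38, 1.47, 1.6, 0.786 and 1.06 CPM in the AS rats and at 3.27, 3.46, 2.36, 2.4 and 2.11 CPM in the RS7 rats. Rxfp2 rose by 1.11 on the log2 scale (standard error 0.22, edgeR adjusted p = 0.0128), and every RS7 rat lay above every AS rat, with the lowest value in AS rat 16 and the highest in RS7 rat 3. Npr2 (ENSRNOG00000015991), the receptor of C-type natriuretic peptide, had 44.5, 48.6, 47.4, 53.4 and 54.1 CPM in the AS rats and 39.8, 38.1, 43.6, 30.7 and 33.8 CPM in the RS7 rats. Npr2 fell by 0.41 on the log2 scale (standard error 0.0904, edgeR adjusted p = 0.023), and every RS7 rat lay below every AS rat, with the lowest value in RS7 rat 5 and the highest in AS rat 17. Oprm1 was called in all 10 fits that left out 1 rat. Rxfp2 was not called without AS rat 17 (edgeR adjusted p = 0.0538). Npr2 was not called without AS rats 14, 16 or 17 or RS7 rats 3, 5 or 6 (edgeR adjusted p from 0.0526 to 0.0919). Prlhr (ENSRNOG00000009922), the receptor of prolactin-releasing peptide, was at 3.06, 5.55, 2.64, 0.629 and 3.68 CPM in the AS rats and at 0.766, 0.241, 0.59, 1.39 and 0.547 CPM in the RS7 rats. Prlhr had the lowest log2 fold change of the list (-2.08), with overlapping groups, and was not called by edgeR in the 20 rats (adjusted p = 0.0606), but was called by the DESeq2 Wald test (adjusted p = 0.0127) and by edgeR without AS rat 16 (adjusted p = 0.0354).

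None of the 7 neuropeptide genes with an identifier, of 21 in the list, was called by edgeR in the 20 rats, 6 of them lower by sign, with a list median of -1.02. Of all genes with a symbol 33.9% were called. Avp (ENSRNOG00000021229), vasopressin, had 36.4, 84.1, 44.5, 5.11 and 35 CPM in the AS rats and 4.18, 0.322, 2.88, 3.79 and 0.0781 CPM in the RS7 rats. Oxt (ENSRNOG00000021225), oxytocin, was at 42.6, 143, 48.8, 4.01 and 51.3 CPM in the AS rats and at 9.61, 0.644, 3.74, 7.13 and 0.0781 CPM in the RS7 rats. Trh (ENSRNOG00000011824), thyrotropin-releasing hormone, had 39, 84.5, 50.3, 18 and 62.2 CPM in the AS rats and 14.1, 6.19, 13.4, 21.3 and 1.95 CPM in the RS7 rats. Avp did not overlap between the groups, whereas Oxt and Trh did, and the rats of a group differed widely. The log2 fold changes were -4.11 for Avp, -3.71 for Oxt and -2.12 for Trh, with edgeR adjusted p of 0.111, 0.121 and 0.0867. Avp was called by the DESeq2 Wald test (adjusted p = 0.0213) and edgeR on the AS and RS7 rats alone (adjusted p = 0.0467), Oxt by the DESeq2 Wald test (adjusted p = 0.0422) and Trh by the DESeq2 Wald test (adjusted p = 0.0187), beside the edgeR values above. Of the other neuropeptide genes, Penk was called by the DESeq2 Wald test (adjusted p = 0.0455) and limma-voom (adjusted p = 0.0244), Cck by the DESeq2 Wald test (adjusted p = 0.00635) and limma-voom (adjusted p = 0.03) and Nppa by the DESeq2 Wald test (adjusted p = 0.0422), and none of the 3 by edgeR in the 20 rats. With 1 rat left out, edgeR called Nppa without AS rat 15 (adjusted p = 0.0254), and Cck without RS7 rat 2 (0.0435), AS rat 13 (0.0467) or AS rat 15 (0.0409). In all, 67 genes that reached 2-fold were not called, 56 of them lower in RS7. Isl1 (ENSRNOG00000012556), a transcription factor of hypothalamic neurons, was at 9.09, 15.4, 12.8, 7.07 and 12.2 CPM in the AS rats and at 5.36, 2.73, 4.78, 5.93 and 1.64 CPM in the RS7 rats. Isl1 did not overlap between the groups but was not called (log2 fold change -1.43, edgeR adjusted p = 0.0574). It was called by the DESeq2 Wald test (adjusted p = 0.0106), limma-voom (adjusted p = 0.0283) and edgeR on the AS and RS7 rats alone (adjusted p = 0.047).

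Wnt signaling had 12 of 17 genes identified (13 identifiers), 2 rose, and all 13 were higher by sign (list median 0.42; 15.4% called, against 33.9% of all genes with a symbol). Fzd3 (ENSRNOG00000047211), a Wnt receptor, had 17, 14.8, 12.5, 9.98 and 12.9 CPM in the AS rats and 23.5, 27.6, 21.1, 22.3 and 26.8 CPM in the RS7 rats. Fzd3 rose by 0.84 on the log2 scale (standard error 0.149, edgeR adjusted p = 0.0087), and every RS7 rat lay above every AS rat, with the lowest value in AS rat 16 and the highest in RS7 rat 3. Fzd5 (ENSRNOG00000014678), another Wnt receptor, was at 3.13, 1.71, 2.83, 2.44 and 2.95 CPM in the AS rats and at 4.67, 4.99, 5.18, 4.48 and 5.31 CPM in the RS7 rats. Fzd5 rose by 0.91 on the log2 scale (standard error 0.188, edgeR adjusted p = 0.0151), and every RS7 rat lay above every AS rat, with the lowest value in AS rat 14 and the highest in RS7 rat 6. Fzd3 was called in all 10 fits that left out 1 rat. Fzd5 was not called without AS rat 14 (edgeR adjusted p = 0.0699). The 16 genes chosen for the ubiquitin ligase list had an identifier and were higher by sign, and 8 rose (list median 0.27; 50% called, against 33.9% of all genes with a symbol). Ligases outside it were not counted, and Trim34, of the same family as Trim37, fell and is given with the immune genes. Mib1 (ENSRNOG00000013281), a ligase that acts in Notch signaling, had 61.5, 60.8, 59.4, 62 and 57.9 CPM in the AS rats and 74.5, 84, 70.1, 73.3 and 80.3 CPM in the RS7 rats. Mib1 rose by 0.34 on the log2 scale (standard error 0.0568, edgeR adjusted p = 0.00405), and every RS7 rat lay above every AS rat, with the lowest value in AS rat 17 and the highest in RS7 rat 3. Hecw1 (ENSRNOG00000016046), a HECT-type ligase, was at 39.7, 38.5, 39.6, 36.9 and 32.2 CPM in the AS rats and at 49.2, 53.1, 47.3, 47.9 and 50.3 CPM in the RS7 rats. Hecw1 rose by 0.41 on the log2 scale (standard error 0.0648, edgeR adjusted p = 0.00405), and every RS7 rat lay above every AS rat, with the lowest value in AS rat 17 and the highest in RS7 rat 3. Birc6 (ENSRNOG00000027191), an inhibitor of apoptosis with ubiquitin-conjugating activity, had 82.8, 69.6, 70.2, 65.9 and 70.9 CPM in the AS rats and 97.7, 103, 98.3, 87.1 and 106 CPM in the RS7 rats. Birc6 rose by 0.45 on the log2 scale (standard error 0.0851, edgeR adjusted p = 0.0102), and every RS7 rat lay above every AS rat, with the lowest value in AS rat 16 and the highest in RS7 rat 6. Hecw2 (0.41), Nedd4l (0.24), Wwp1 (0.23), Trim37 (0.22) and Mdm4 (0.27) also rose. Mib1, Hecw1 and Birc6 were each called in all 10 fits that left out 1 rat. Hecw2 was not called without AS rats 14, 16 or 17 or RS7 rats 3, 4, 5 or 6 (edgeR adjusted p from 0.0539 to 0.119). Nedd4l was not called without AS rats 14, 16 or 17 or RS7 rats 3, 4 or 5 (edgeR adjusted p from 0.0542 to 0.111). Wwp1 was not called without AS rats 14, 16 or 17 or RS7 rats 3, 5 or 6 (edgeR adjusted p from 0.0787 to 0.1). Trim37 was not called without AS rats 14, 16 or 17 or RS7 rats 3, 4, 5 or 6 (edgeR adjusted p from 0.0586 to 0.134). Mdm4 was not called without AS rats 13, 14, 15, 16 or 17 or RS7 rats 2, 3, 4, 5 or 6 (edgeR adjusted p from 0.0508 to 0.121). Nedd4l, Wwp1, Trim37 and Mdm4 were not called with all 24 rats (edgeR adjusted p from 0.105 to 0.759).

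Of 17 chromatin regulators 15 had an identifier, 10 rose, and all 15 were higher by sign (list median 0.30; 66.7% called, against 33.9% of all genes with a symbol). Rif1 (ENSRNOG00000054901), a protein of DNA repair and replication timing, had 14.9, 16.5, 17.3, 16.7 and 17.9 CPM in the AS rats and 21, 24.2, 22, 20.1 and 20.7 CPM in the RS7 rats. Rif1 rose by 0.38 on the log2 scale (standard error 0.0801, edgeR adjusted p = 0.018), and every RS7 rat lay above every AS rat, with the lowest value in AS rat 13 and the highest in RS7 rat 3. Setd7 (ENSRNOG00000013045), a lysine methyltransferase, was at 65.9, 59, 70.6, 66.7 and 58.6 CPM in the AS rats and at 73.5, 86.6, 76.4, 85.6 and 84.6 CPM in the RS7 rats. Setd7 rose by 0.34 on the log2 scale (standard error 0.0735, edgeR adjusted p = 0.0191), and every RS7 rat lay above every AS rat, with the lowest value in AS rat 17 and the highest in RS7 rat 3. Hdac9 (ENSRNOG00000004158), a histone deacetylase, had 23.6, 25.1, 28.1, 17.8 and 18.6 CPM in the AS rats and 27.7, 30.2, 31.7, 38.2 and 33 CPM in the RS7 rats. Hdac9 rose by 0.51 on the log2 scale (standard error 0.114, edgeR adjusted p = 0.0264), and the groups overlapped, with the lowest value in AS rat 16 and the highest in RS7 rat 5. Ash1l (0.23), Kmt2c (0.23), Atrx (0.20), Jmjd1c (0.16), Wapl (0.20), Pds5a (0.26) and Cdyl (0.33) also rose. Rif1 was not called without AS rat 14 or RS7 rat 3 (edgeR adjusted p from 0.0639 to 0.0653). Setd7 was not called without AS rats 14 or 17 or RS7 rats 3, 5 or 6 (edgeR adjusted p from 0.0563 to 0.0833). Hdac9 was not called without AS rats 14, 16 or 17 or RS7 rats 3, 5 or 6 (edgeR adjusted p from 0.0526 to 0.0977). Ash1l was not called without AS rats 14, 16 or 17 or RS7 rats 3, 4 or 5 (edgeR adjusted p from 0.0554 to 0.0997). Kmt2c was not called without AS rats 13, 14, 16 or 17 or RS7 rats 3, 4 or 6 (edgeR adjusted p from 0.0583 to 0.125). Atrx was not called without AS rats 14, 16 or 17 or RS7 rats 3, 4, 5 or 6 (edgeR adjusted p from 0.0528 to 0.124). Jmjd1c was not called without AS rats 14, 15, 16 or 17 or RS7 rats 3, 4, 5 or 6 (edgeR adjusted p from 0.057 to 0.137). Wapl was not called without AS rats 13, 14, 16 or 17 or RS7 rats 3, 5 or 6 (edgeR adjusted p from 0.0556 to 0.132). Pds5a was not called without AS rats 13, 14, 16 or 17 or RS7 rats 2, 3, 4, 5 or 6 (edgeR adjusted p from 0.0554 to 0.154). Cdyl was not called without AS rats 13, 14, 16 or 17 or RS7 rats 3, 4, 5 or 6 (edgeR adjusted p from 0.0501 to 0.162). Rif1, Ash1l, Kmt2c, Atrx, Jmjd1c, Wapl and Pds5a were not called with all 24 rats (edgeR adjusted p from 0.193 to 0.725). Jmjd1c and Cdyl were not called with the AS and RS7 rats alone (edgeR adjusted p from 0.052 to 0.0571). Jmjd1c, Wapl and Cdyl were not called without the filter on low counts (edgeR adjusted p from 0.0572 to 0.0898).

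Of the 12 immediate-early genes only Arc could be linked to an identifier through the study's lists. The others may have been counted and tested but could not be read, so Arc does not stand for the class. Arc (ENSRNOG00000043465), which acts at synapses in the trafficking of AMPA receptors, had 6.69, 9.87, 6.51, 6.13 and 6.22 CPM in the AS rats and 4.32, 3.7, 3.67, 5.99 and 3.67 CPM in the RS7 rats. Arc fell by 0.72 on the log2 scale (standard error 0.169, edgeR adjusted p = 0.0293), and every RS7 rat lay below every AS rat, with the lowest value in RS7 rat 4 and the highest in AS rat 14. Glucocorticoid response genes had 4 of 12 genes identified, of which 2, Hlf and Klf9, rose (list median 0.34). Of all genes with a symbol 33.9% were called. Hlf (ENSRNOG00000002456), a transcription factor of the PAR bZIP family, was at 39.2, 33.4, 45.4, 34.4 and 34 CPM in the AS rats and at 51, 52, 58, 60.4 and 50.02 CPM in the RS7 rats. Hlf rose by 0.55 on the log2 scale (standard error 0.0897, edgeR adjusted p = 0.00405), and every RS7 rat lay above every AS rat, with the lowest value in AS rat 14 and the highest in RS7 rat 5. Klf9 (ENSRNOG00000014215), a Kruppel-like factor, had 80.7, 79.7, 95.8, 78.5 and 79.5 CPM in the AS rats and 92.7, 102, 111, 110.4 and 94.6 CPM in the RS7 rats. Klf9 rose by 0.31 on the log2 scale (standard error 0.0667, edgeR adjusted p = 0.0224), and the groups overlapped, with the lowest value in AS rat 16 and the highest in RS7 rat 4. Hlf was called in all 10 fits that left out 1 rat. Arc was not called without AS rats 14 or 17 or RS7 rats 3, 4 or 6 (edgeR adjusted p from 0.0564 to 0.119). Klf9 was not called without AS rats 14, 16 or 17 or RS7 rats 3 or 5 (edgeR adjusted p from 0.0542 to 0.081). Arc and Klf9 were not called with all 24 rats (edgeR adjusted p from 0.0929 to 0.644).

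Of 13 immune and interferon genes 11 had an identifier, read only through the genes listed as different, and 7 fell and 1 rose, with a list median of -0.40 (72.7% called, against 33.9% of all genes with a symbol). Tgfb1 (ENSRNOG00000012216), a transforming growth factor, had 5.75, 9.79, 6.41, 7.39 and 9.74 CPM in the AS rats and 4.6, 3.14, 4.33, 5.49 and 4.45 CPM in the RS7 rats. Tgfb1 fell by 0.82 on the log2 scale (standard error 0.187, edgeR adjusted p = 0.0275), and every RS7 rat lay below every AS rat, with the lowest value in RS7 rat 3 and the highest in AS rat 14. Irf1 (ENSRNOG00000008144), an interferon-regulated transcription factor, was at 5.89, 5.87, 5.47, 7.15 and 6.22 CPM in the AS rats and at 3.97, 5.31, 4.52, 3.53 and 4.45 CPM in the RS7 rats. Irf1 fell by 0.50 on the log2 scale (standard error 0.126, edgeR adjusted p = 0.039), and every RS7 rat lay below every AS rat, with the lowest value in RS7 rat 5 and the highest in AS rat 16. Il4r (ENSRNOG00000015441), the interleukin 4 receptor subunit, had 12.1, 13.1, 11.9, 13.8 and 15.6 CPM in the AS rats and 11.3, 10.1, 10.3, 8.83 and 10.0 CPM in the RS7 rats. Il4r fell by 0.40 on the log2 scale (standard error 0.0967, edgeR adjusted p = 0.0326), and every RS7 rat lay below every AS rat, with the lowest value in RS7 rat 5 and the highest in AS rat 17. Fgl2 (ENSRNOG00000012881), a fibrinogen-like protein of immune cells, was at 12.4, 15.7, 14.5, 12.9 and 17.4 CPM in the AS rats and at 8.5, 10.1, 9.24, 11.2 and 10.9 CPM in the RS7 rats. Fgl2 fell by 0.55 on the log2 scale (standard error 0.133, edgeR adjusted p = 0.0339), and every RS7 rat lay below every AS rat, with the lowest value in RS7 rat 2 and the highest in AS rat 17. Trafd1 (-0.32), Il22ra2 (-0.67) and Trim34 (-0.37) also fell, and Tgfb2 rose (0.26). Tgfb1 was not called without AS rats 14, 16 or 17 or RS7 rats 3 or 6 (edgeR adjusted p from 0.0567 to 0.107). Irf1 was not called without AS rats 14, 16 or 17 or RS7 rats 2, 4, 5 or 6 (edgeR adjusted p from 0.0536 to 0.137). Il4r was not called without AS rats 14, 16 or 17 or RS7 rats 3, 5 or 6 (edgeR adjusted p from 0.0799 to 0.132). Fgl2 was not called without AS rats 14, 16 or 17 or RS7 rats 2, 3, 4, 5 or 6 (edgeR adjusted p from 0.0554 to 0.13). Trafd1 was not called without AS rats 14, 16 or 17 or RS7 rats 3, 5 or 6 (edgeR adjusted p from 0.0542 to 0.0977). Il22ra2 was not called without AS rats 14, 16 or 17 or RS7 rats 3, 4, 5 or 6 (edgeR adjusted p from 0.0639 to 0.131). Trim34 was not called without AS rats 14, 16 or 17 or RS7 rats 3, 4, 5 or 6 (edgeR adjusted p from 0.0528 to 0.132). Tgfb2 was not called without AS rats 13, 14, 16 or 17 or RS7 rats 4 or 6 (edgeR adjusted p from 0.0526 to 0.115). Irf1, Il4r, Trafd1, Il22ra2, Trim34 and Tgfb2 were not called with all 24 rats (edgeR adjusted p from 0.0547 to 0.458). Trim34 was not called with the AS and RS7 rats alone (edgeR adjusted p = 0.0573). Trim34 was not called without the filter on low counts (edgeR adjusted p = 0.0729).

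Large increases outside the lists by function included an aminopeptidase, a fucosyltransferase and a nuclear pore protein. Lnpep (ENSRNOG00000047387), the insulin-regulated aminopeptidase, had 5.31, 4.16, 5, 4.64 and 3.11 CPM in the AS rats and 8.01, 10.1, 8.59, 8.39 and 10.7 CPM in the RS7 rats. Lnpep rose by 1.03 on the log2 scale (standard error 0.171, edgeR adjusted p = 0.00405), and every RS7 rat lay above every AS rat, with the lowest value in AS rat 17 and the highest in RS7 rat 6. Another identifier with the symbol Lnpep (ENSRNOG00000055229) rose by 0.85 (edgeR adjusted p = 0.00562), and how the reads of 1 gene were shared between them was not tested. Fut9 (ENSRNOG00000008475), a fucosyltransferase, was at 2.76, 3.1, 2.17, 1.81 and 1.64 CPM in the AS rats and at 4.53, 7.4, 4.26, 4.73 and 9.22 CPM in the RS7 rats. Fut9 rose by 1.37 on the log2 scale (standard error 0.265, edgeR adjusted p = 0.0126), and every RS7 rat lay above every AS rat, with the lowest value in AS rat 17 and the highest in RS7 rat 6. Zfp871 (ENSRNOG00000004947), a zinc finger protein, had 6.69, 5.3, 5.37, 4.17 and 4.83 CPM in the AS rats and 9.47, 11.3, 8.19, 9.72 and 13.1 CPM in the RS7 rats. Zfp871 rose by 0.96 on the log2 scale (standard error 0.145, edgeR adjusted p = 0.00348), and every RS7 rat lay above every AS rat, with the lowest value in AS rat 16 and the highest in RS7 rat 6. Ranbp2 (ENSRNOG00000056428), a nuclear pore protein, was at 2.91, 3.43, 2.83, 2.44 and 2.05 CPM in the AS rats and at 3.97, 6.27, 5.05, 5.05 and 5.47 CPM in the RS7 rats. Ranbp2 rose by 0.91 on the log2 scale (standard error 0.174, edgeR adjusted p = 0.00973), and every RS7 rat lay above every AS rat, with the lowest value in AS rat 17 and the highest in RS7 rat 3. Another identifier with the symbol Ranbp2 (ENSRNOG00000000796), at 156 and 175 CPM on average, was not called (log2 fold change 0.17, edgeR adjusted p = 0.0851), and the sharing of reads was not tested here either. Acpp, an acid phosphatase, went from 1.72 ± 0.685 to 3.68 ± 0.375 CPM (log2 fold change 1.11, edgeR adjusted p = 0.0326), and Lypd6b went from 14.7 ± 3.07 to 27.7 ± 4.36 CPM (log2 fold change 0.90, edgeR adjusted p = 0.0364). Lox, an enzyme that cross-links collagen and a member of the vessel list, went from 11 ± 2.42 to 21 ± 5.68 CPM (log2 fold change 0.93, edgeR adjusted p = 0.031). Vps13c, a lipid transfer protein, and Prex2, an activator of Rac, were among the 10 lowest adjusted p, with edgeR adjusted p of 0.00348 and 0.00405 and log2 fold changes of 0.46 and 0.41. Lnpep, Zfp871, Ranbp2, Vps13c and Prex2 were each called in all 10 fits that left out 1 rat. Fut9 was not called without AS rat 17 (edgeR adjusted p = 0.0563). Acpp was not called without AS rats 14, 16 or 17 or RS7 rats 3, 5 or 6 (edgeR adjusted p from 0.0787 to 0.12). Lypd6b was not called without AS rats 14, 16 or 17 or RS7 rats 3, 5 or 6 (edgeR adjusted p from 0.0708 to 0.115). Lox was not called without AS rats 14 or 17 or RS7 rats 3, 5 or 6 (edgeR adjusted p from 0.0804 to 0.107). Fut9 was not called with all 24 rats (edgeR adjusted p = 0.0572). Lypd6b and Lox were not called without the filter on low counts (edgeR adjusted p from 0.0615 to 0.0718).

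Large decreases outside the lists by function included a growth factor and a phosphatase. Btc (ENSRNOG00000002728), betacellulin, a ligand of the EGF receptor, had 2.69, 3.02, 2.55, 2.83 and 2.78 CPM in the AS rats and 1.67, 1.93, 1.11, 1.32 and 1.72 CPM in the RS7 rats. Btc fell by 0.85 on the log2 scale (standard error 0.155, edgeR adjusted p = 0.00839), and every RS7 rat lay below every AS rat, with the lowest value in RS7 rat 4 and the highest in AS rat 14. Ubash3b (ENSRNOG00000008187), a tyrosine phosphatase, was at 49.5, 50.8, 51.9, 38.6 and 53.7 CPM in the AS rats and at 36.5, 29.1, 35.1, 29.97 and 32.9 CPM in the RS7 rats. Ubash3b fell by 0.58 on the log2 scale (standard error 0.107, edgeR adjusted p = 0.00949), and every RS7 rat lay below every AS rat, with the lowest value in RS7 rat 3 and the highest in AS rat 17. Wscd2 went from 7.37 ± 1.47 to 4.56 ± 0.846 CPM (log2 fold change -0.70, edgeR adjusted p = 0.0174), and Slc44a5, a choline transporter-like protein, went from 5.98 ± 1.07 to 3.91 ± 0.48 CPM (log2 fold change -0.60, edgeR adjusted p = 0.0324). Zbtb7c, a zinc finger protein, went from 7.48 ± 0.757 to 4.83 ± 0.828 CPM (log2 fold change -0.62, edgeR adjusted p = 0.0257), and Pla2g4b, a phospholipase A, went from 6.3 ± 0.606 to 4.13 ± 0.904 CPM (log2 fold change -0.61, edgeR adjusted p = 0.0339). Btc and Ubash3b were each called in all 10 fits that left out 1 rat. Wscd2 was not called without AS rats 14 or 17 or RS7 rat 5 (edgeR adjusted p from 0.0552 to 0.0792). Slc44a5 was not called without AS rats 14, 15, 16 or 17 or RS7 rats 3, 5 or 6 (edgeR adjusted p from 0.0525 to 0.124). Zbtb7c was not called without AS rats 14 or 17 or RS7 rats 3 or 6 (edgeR adjusted p from 0.0677 to 0.0902). Pla2g4b was not called without AS rats 14, 15, 16 or 17 or RS7 rats 4, 5 or 6 (edgeR adjusted p from 0.0602 to 0.101). Wscd2, Zbtb7c and Pla2g4b were not called with all 24 rats (edgeR adjusted p from 0.0502 to 0.0955).

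**Figure D3:**
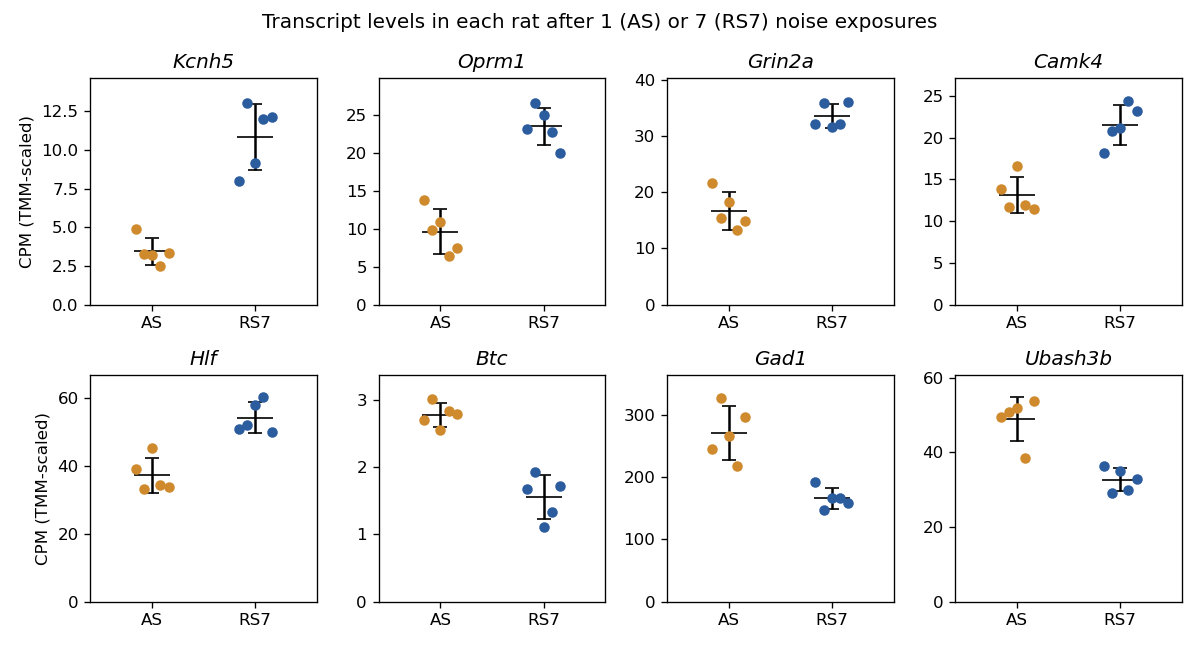
CPM (vertical axes, from 0) of 8 genes in each AS rat (orange) and each RS7 rat (blue), with the mean and SD of 5 rats in black. The 5 increases (Kcnh5, Oprm1, Grin2a, Camk4 and Hlf) and the 3 decreases (Btc, Gad1 and Ubash3b) show no overlap between the groups. The genes shown are among the called genes without overlap, so this is not a separate result.

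The left-out rats, whose libraries the study had judged to be of low quality, had no part in the calls. They were placed against the midpoint between the AS and RS7 means. RS7 rat 1 lay on the RS7 side in 164 of the 192 increases (85.4%) and 66 of the 78 decreases (84.6%), against 60.4% of all genes tested. AS rat 18, the shallowest library with 4744531 reads, lay on the AS side in 97 of the 192 increases (50.5%) and 23 of the 78 decreases (29.5%), against 46.6% of all genes tested. The 10 most abundant genes took 33.8% of the counts of rat 1 and 46.3% of those of rat 18.

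The remaining groups of the same fit give the levels of the called genes without and with fewer exposures. Relative to the AS mean, the median log2 level of the 192 increases was 0.29, 0.41, 0.39, 0.42 and 0.38 in the RS7 rats and between -0.09 and 0.11 in the AS rats. It lay between -0.01 and 0.21 in the 5 control rats without loud noise, and between 0.04 and 0.34 in the 5 rats with 3 exposures. For the 78 decreases it was -0.30, -0.37, -0.36, -0.46 and -0.53 in the RS7 rats, between -0.18 and -0.00 in the control rats and between -0.33 and -0.09 after 3 exposures. These genes were selected for the difference between AS and RS7, so their place in those groups is a description.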

How the data were processed

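Polyadenylated RNA from the rPH tissue block of each of 24 rats was sequenced by the authors as paired reads of 75 bases. Per the submitters' processing notes, reads were trimmed with Trimmomatic 0.36, mapped to rn6 with HISAT2 2.0.5 and counted per Ensembl gene with featureCounts of Subread. The deposited values are raw counts, made by the authors, and the strand setting was not given in the sources used here. Totals ranged from 10647588 to 16538531 counts in the 10 rats compared. The 20 rats retained by the study (4 groups of 5) were fitted together, without rats 1, 8, 18 and 20, as identified from the mean levels the study listed. Genes were filtered with filterByExpr (minimum count 10), scaled by TMM and tested for RS7 minus AS with the robust quasi-likelihood test of edgeR 4.0.16 in R 4.3.3, with Benjamini-Hochberg adjustment over all 16202 genes and a threshold of 0.05. The test was checked on simulated data. Gene symbols were read from the study's supplement, used only as an id-to-symbol map. The alternatives were limma-voom (limma 3.58.1) with quality weights, the DESeq2 1.42.0 Wald test, DESeq2 size factors, no filter, all 24 rats, the AS and RS7 rats alone, and each of the 10 rats left out in turn. Named genes were called genes with a symbol and no overlap between groups: the 15 largest increases, the 15 largest decreases and the 10 lowest adjusted p, together with members of the gene and marker lists that were called or that define a list, and the genes the study probed by in situ hybridization, and not all of these are described. Other genes were named for large changes without a call, after their values were seen. Members and lists were chosen with earlier results of these data known.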

Additional observations from a re-analysis of the deposited data

Results flagged for a closer look

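Among the 486 sets of 5 rats formed by 243 genes in AS and RS7, 26 held 1 rat far from the other 4, by its gap to the nearest rat over the range of the set. Chance sets apart about 1 in 20 such sets, and levels are CPM. RS7 rat 5 was the distant rat 8 times, AS rats 14 and 15 4 times each, and RS7 rat 6 3 times. In AS rat 13, Aqp4 was 813 against 923 to 959.6 and Myo9a was 67.7 against 52.7 to 54.3 in the other rats of the group. In AS rat 14, Arc was 9.87 against 6.13 to 6.69, Kcng1 was 3.75 against 2.18 to 2.45 and Wapl was 48.4 against 50.8 to 51.5 in the other rats of the group. There, Il1rapl1 was 5.46 against 3.93 to 4.29 in the other rats of the group. In AS rat 15, Pla2g4b was 7.35 against 5.79 to 6.18, Ube4b was 121 against 113 to 114 and Klf9 was 95.8 against 78.5 to 80.8 in the other rats of the group. There, Atp2b2 was 613 against 493 to 525 in the other rats of the group. In AS rat 16, Ubash3b was 38.6 against 49.5 to 53.7 in the other rats of the group. In AS rat 17, Erc2 was 15.7 against 18.5 to 19.4 and Il1rap was 37.4 against 39.3 to 39.6 in the other rats of the group. In RS7 rat 2, Myo5a was 389.9 against 425 to 439 in the other rats of the group. In RS7 rat 4, Trim44 was 103 against 76 to 83.5 in the other rats of the group. In RS7 rat 5, Nppa was 1.32 against 1.74 to 1.9, Arc was 5.99 against 3.67 to 4.32 and Cfap300 was 2.84 against 4.53 to 4.99 in the other rats of the group. There, Wscd2 was 3.09 against 4.67 to 5.15, Adcy8 was 76.7 against 63.6 to 65.6 and Plcb4 was 435 against 338 to 361 in the other rats of the group. There, Syt7 was 239 against 181 to 195 and Ntng1 was 383 against 286 to 309 in the other rats of the group. In RS7 rat 6, Irf3 was 29.3 against 32.7 to 33.9, Kcnh7 was 8.52 against 5.64 to 6.19 and Ctxn3 was 34.7 against 24.7 to 27.3 in the other rats of the group.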

How the results depend on the processing

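The 270 calls, 192 higher and 78 lower, became 579 with the DESeq2 Wald test (403 higher and 176 lower), 772 with limma-voom (480 and 292), 433 with the AS and RS7 rats alone (302 and 131) and 129 with all 24 rats (107 and 22). The causes were not tested. With DESeq2 size factors there were 277 calls, and without the filter on low counts 258. The share of increases, 71.1%, was 83.0% with all 24 rats and 62.2% with limma-voom. When 1 rat at a time was left out, the calls ranged from 46 to 403, the increases from 41 to 283, the decreases from 5 to 144 and the share of increases from 59.9% to 89.1%.

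Of the named log2 fold changes, 3 changed sign, each with all 24 rats: Aqp4 to -0.105, Vsnl1 to -0.0249 and Snap25 to -0.32, and the cause was not tested. The 24 rats include those left out by the study for low library quality. Over 243 named genes and 16 alternatives, 2916 values kept their direction and their side of the threshold, 587 lost the call and 382 gained it. Each rat belonged to 1 group, so no rat was compared with itself. Animals of the different groups were euthanized in turn within the same morning. Their order was not given in the sources used here, so it was not fitted as a block. Between 10647588 and 16538531 counts per library and 5 rats per group limit the precision, most of all for rare transcripts.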
